A study of Homo sapiens with 8 samples.

Results

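The expression of 35 genes of autophagy and the lysosome was followed in 4 human renal carcinoma cell lines treated with A939572, which inhibits SCD1, an enzyme that puts a double bond into saturated fatty acids. The genes were chosen by name, with earlier results of these data known. Of them, 28 act at the steps of autophagy, from the initiating kinase to the cargo receptors. Another 6 encode lysosomal proteins, and TFEB encodes a transcription factor of both. The members are 35 of the 19775 genes that had an array probe set annotated to a single gene. All 35 passed the filter on dim genes that 12093 genes passed. Each gene was read from its brightest probe set, a set of short oligonucleotides that measures 1 transcript or a few. The members had 94 probe sets annotated to a single gene, of which 79 passed the filter, and the others served as a check.

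ACHN, CAKI2, A498 and CAKI1 are established kidney cancer lines that the labels call clear cell carcinoma, all grown in medium with fetal bovine serum. Each line gave 1 array of cells exposed to 75 nM A939572 for 24 h and 1 array of cells kept for 24 h in DMSO, the solvent, 8 arrays in all. Every array was set against the DMSO array of its own line, so the 4 lines were the replicates. The labels do not say whether cultures were repeated within a line. The p-values rest on the spread between the lines, after limma draws each gene's variance towards that of genes of like level. Signals are in the authors' linear units, and differences are A939572 minus DMSO on the log2(signal + 16) scale, with the SD over the 4 lines. This SD is the gene's own, so an adjusted p does not follow from it alone. A gene was called where its adjusted p in limma, corrected by the Benjamini-Hochberg method over all genes tested, lay under 0.05.

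Macroautophagy encloses part of the cytoplasm in a membrane that grows into an autophagosome and then fuses with the lysosome, where its content is digested. A kinase complex built on ULK1 starts the process, and a lipid kinase complex built on PIK3C3 marks the growing membrane with phosphatidylinositol 3-phosphate, which WIPI proteins read. A pair of ubiquitin-like systems then attach proteins of the ATG8 family to the membrane, where cargo receptors such as SQSTM1 dock. TFEB and its relatives bind short promoter motifs in many of these genes. The abundance of these transcripts is not a measure of autophagic flux, which arrays cannot read.

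Median signals on the 8 arrays ran from 68.4 to 84.0 units, and the median difference of all genes tested was -0.03. Of 8 markers of renal carcinoma lines, 7 had a probe set and all 7 passed the filter. Their summed signal was 50216 to 87273 units in treated cells, against 56971 to 93923 units in DMSO cells. PAX8, a transcription factor of the renal lineage, had between 4079 and 8278 units on every array. KRT8 had 1373 to 5829, KRT18 6900 to 21788 and VIM 33034 to 44650 units, so VIM made up much of the sum. The remaining markers were dim in some lines, with 40.3 to 712 units for PAX2, 2.72 to 2614 for CDH6 and 123 to 23918 for NNMT. Of the markers of other cell types, COL1A1 was the only one of 4 fibroblast markers and PECAM1 the only one of 4 endothelial markers past the filter, and none of 3 leukocyte markers passed it. The fibroblast markers summed to 140.2 to 1029 units in treated cells, against 202 to 1400.2 units in DMSO cells. The endothelial markers summed to 169.7 to 358 units in treated cells, against 170.2 to 509 units in DMSO cells, and the leukocyte markers to 30.1 to 136 units, against 70.6 to 133 units.

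Transcripts of the autophagy steps shifted towards higher levels in treated cells. Of the 28 autophagy genes 13 rose (46.4%) and none fell, and of the 6 lysosomal genes 1 fell and none rose. Over all genes tested 30.6% were called, 14.7% higher and 15.9% lower, so 37.1% of the members rose against that background and 2.86% fell. With 6 genes, the lysosomal counts cannot be told apart from those shares. At an unadjusted p under 0.05 in limma, 2 autophagy genes were lower and no lysosomal gene was higher. The median difference was 0.35 for the autophagy genes and 0.02 for the lysosomal genes, a lysosomal median that turned to -0.01 on the signals as deposited and -0.03 over the mean of all probe sets. The risers were RB1CC1, ATG13, PIK3C3, ATG14, UVRAG, WIPI1, ATG12, ATG4A, ATG4B, MAP1LC3B, GABARAPL1, SQSTM1 and OPTN, and LAMP2 fell. All 13 risers were higher in 4 of 4 lines, as were ATG3, BECN1 and NBR1, which missed the threshold. Thus 16 of 35 members were higher in every line, where 22.7% of all genes tested were, and 3 were lower in every line, where 25.3% were. Another 16 members had opposite signs between lines.

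**Figure D1:**
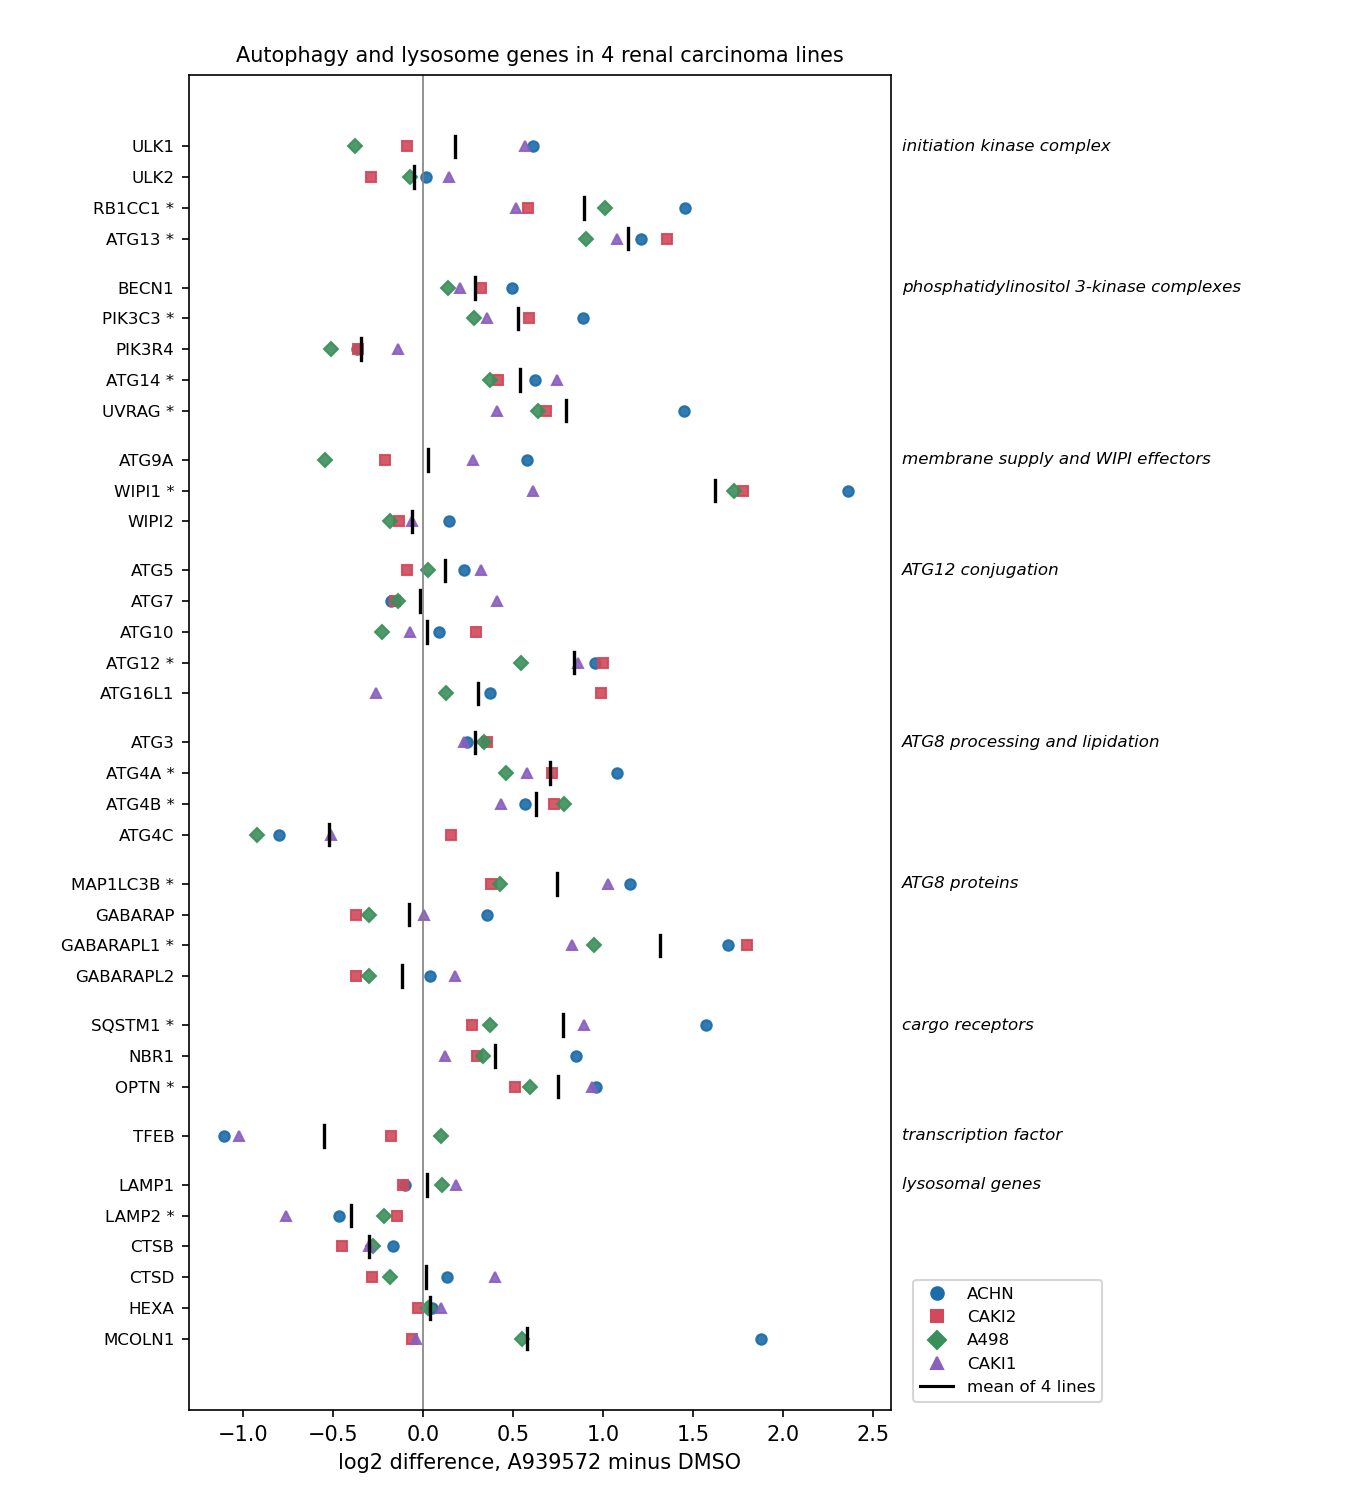
Differences of the 35 members, A939572 minus DMSO on the log2 scale, 1 row per gene grouped by step, with a point for each of the 4 lines, the mean as a bar and an asterisk at members past the threshold. The mean bars of WIPI1 and GABARAPL1 lie furthest to the right, all points of LAMP2 and CTSB lie left of 0, and MCOLN1 in ACHN stands apart from its other lines.

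The rises came on arrays that also differed in a sign of RNA quality. For ACTB, the control probe set at the 3′ end over that at the 5′ end gave 4.22, 3.39, 3.13 and 3.02 in treated ACHN, CAKI2, A498 and CAKI1 cells, against 2.12 to 2.33 in DMSO cells. The same ratio for GAPDH was 1.01 to 1.11 in treated cells, against 0.962 to 1.05 in DMSO cells. The ACTB ratio was highest in treated ACHN cells, where 8 of the 13 risers and 27.1% of all genes tested had their largest difference. The median over the 28 autophagy genes was 0.60 in ACHN. CAKI1, with the lowest treated ratio, had 0.38, against 0.34 in CAKI2 and 0.31 in A498. The part of RNA quality in these results was not tested. In RNA of a whole culture, a change in how many cells express a gene and a change in its RNA per cell cannot be told apart.

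In the initiation complex, the scaffold subunits rose and the kinases did not pass the test. ATG13, the regulatory subunit that is a target of TORC1, had 764, 515, 1129.9 and 1144 units in treated ACHN, CAKI2, A498 and CAKI1 cells, against 326, 191, 593 and 524 units in DMSO cells. Every line moved by a like amount, and of the treated values only that of CAKI2 lay below a DMSO value. Its mean difference was 1.14 ± 0.19 (SD, n = 4 lines; limma adjusted p = 0.000741), a 2.20-fold rise. RB1CC1, the large scaffold also called FIP200, had 4882, 2593, 4940.1 and 9489.6 units in treated cells, against 1774, 1706, 2467 and 6701 units in DMSO cells. CAKI1 stood highest in both groups, so the groups overlapped although each line moved up. The RB1CC1 difference was 0.89 ± 0.43 (limma adjusted p = 0.0034), with 1.46 in ACHN as its largest value.

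ULK1, the kinase that phosphorylates the other subunits, had positive differences in ACHN (0.61) and CAKI1 (0.57) and negative ones in CAKI2 (-0.09) and A498 (-0.38). They opposed each other, and the mean of 0.18 ± 0.49 did not pass (limma adjusted p = 0.593). Its relative ULK2 had a mean of -0.05 ± 0.18 and differed more between lines than between treatments, with 33.8 units in treated A498 cells and 362 units in treated ACHN cells.

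In the lipid kinase complexes, the catalytic subunit and both interchangeable partners of BECN1 rose. UVRAG, the partner in the complex that acts on endosomes, had 528, 470.1, 647 and 819.9 units in treated ACHN, CAKI2, A498 and CAKI1 cells, against 186, 287, 412 and 605 units in DMSO cells. The DMSO values spanned 3.26-fold, and the treated values lay closer together, since ACHN moved most (1.45) and CAKI1 least (0.41). The UVRAG mean was 0.80 ± 0.45 (limma adjusted p = 0.0122). ATG14, the partner that directs the complex to the forming autophagosome, had 1387, 1315, 702 and 940.4 units in treated cells, against 889, 973, 543 and 545 units in DMSO cells. A498 and CAKI1 were lowest in DMSO, and the groups overlapped. ATG14 rose by 0.54 ± 0.17 (limma adjusted p = 0.0152). PIK3C3, the catalytic subunit, had 3611, 2114, 1801 and 2704 units in treated cells, against 1932, 1374, 1434 and 2075 units in DMSO cells, a difference of 0.53 ± 0.27 (limma adjusted p = 0.0172). ACHN rose most here too, and treated A498 cells stayed below DMSO ACHN cells.

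The ATG14 and PIK3C3 calls were each lost for 2 of the 4 lines left out. Without ACHN the adjusted p was 0.0589 for ATG14 and 0.0826 for PIK3C3, without CAKI1 it was 0.0602 for ATG14, and without CAKI2 it was 0.0544 for PIK3C3, which also missed the threshold over the mean of its probe sets (0.084). BECN1, the shared scaffold, was higher in every line, by 0.29 ± 0.16, without passing (limma adjusted p = 0.083). PIK3R4, the regulatory kinase-like subunit, ran the other way in every line, at -0.34 ± 0.15 (limma adjusted p = 0.0687).

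WIPI1, one of the proteins that bind phosphatidylinositol 3-phosphate on the growing membrane, had the largest rise of all 35 members. Its probe set had 7629, 4387, 4862 and 7209 units in treated ACHN, CAKI2, A498 and CAKI1 cells, against 1481, 1247, 1474 and 4747 units in DMSO cells. The DMSO value of CAKI1 stood well above those of the other 3 lines, whereas treated ACHN and CAKI1 cells had similar values. ACHN moved most (2.36), then CAKI2 (1.78) and A498 (1.73), and CAKI1 least (0.61), with a mean of 1.62 ± 0.73 (limma adjusted p = 0.0012), a 3.07-fold rise. A second WIPI1 probe set had 1.85 ± 0.52 (limma adjusted p = 0.000256). WIPI2, which recruits ATG16L1, had -0.06 ± 0.14, and its 3 other probe sets past the filter ran from -0.24 to 0.43 without passing. ATG9A, the lipid scramblase carried in vesicles to the site of assembly, had 0.58 in ACHN and -0.55 in A498, with a mean of 0.03 ± 0.50.

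The promoter window of WIPI1 is shown because this gene moved most. It comes from RefSeq (GRCh38.p14), holds the 250 bases before the annotated start, and has none of the motifs searched.
WIPI1, chr17:68457497-68457746, minus strand: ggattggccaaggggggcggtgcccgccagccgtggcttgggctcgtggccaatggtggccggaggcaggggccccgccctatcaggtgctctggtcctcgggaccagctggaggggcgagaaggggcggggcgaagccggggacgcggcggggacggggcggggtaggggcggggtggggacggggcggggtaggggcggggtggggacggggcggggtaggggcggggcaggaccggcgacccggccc

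Of the system that joins ATG12 to ATG5, the modifier itself rose and the other members did not pass the test. ATG12 had 4258, 3197, 5328 and 5686 units in treated ACHN, CAKI2, A498 and CAKI1 cells, against 2171, 1567, 3659 and 3172 units in DMSO cells. All lines shared the direction, with CAKI2 lowest in both groups. The difference was 0.84 ± 0.20 (limma adjusted p = 0.00116), a 1.79-fold rise. ATG5, the acceptor of ATG12, had 0.12 ± 0.19 and ATG10, the conjugating enzyme, 0.02 ± 0.22. ATG7, the activating enzyme of both systems, had -0.18, -0.16 and -0.14 in ACHN, CAKI2 and A498 but 0.41 in CAKI1. Its 2 other probe sets past the filter had 0.26 ± 0.35 and 0.31 ± 0.40 (limma adjusted p = 0.292 and 0.276). Both were negative in CAKI2 alone, so the direction for ATG7 turned with the probe set. ATG16L1, which places the conjugate on the membrane, had 0.99 in CAKI2 and -0.26 in CAKI1, with a mean of 0.31 ± 0.52 (limma adjusted p = 0.307).

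Among the proteases that trim ATG8 proteins, ATG4A and ATG4B rose. ATG4B had 1031, 891, 836 and 789 units in treated ACHN, CAKI2, A498 and CAKI1 cells, against 688, 529.9, 482 and 573 units in DMSO cells. Every treated value lay above every DMSO value. The difference was 0.63 ± 0.16 (limma adjusted p = 0.00831). ATG4A had 694, 406, 819 and 452 units in treated cells, against 327, 241, 595 and 296 units in DMSO cells. A498 was highest in both groups, and each line rose, by 0.71 ± 0.27 on average (limma adjusted p = 0.00963). ATG4C, another protease of the family, leaned the other way at -0.52 ± 0.48 (limma adjusted p = 0.0773), with 403, 224, 202 and 544 units in treated cells, against 732, 199.7, 394 and 776 units in DMSO cells. CAKI2 was its exception with a positive difference of 0.16, and without CAKI2 the mean was -0.75 (limma adjusted p = 0.0199). ATG3, the enzyme that passes ATG8 proteins to the lipid, had 0.29 ± 0.07 in the brighter of its probe sets (limma adjusted p = 0.0575). Its dimmer probe set past the filter had -0.46 ± 1.22, with -2.01 in ACHN and 0.86 in A498, and the mean of both was -0.08, so the direction for ATG3 turned with the probe set.

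The ATG8 proteins themselves divided, with MAP1LC3B and GABARAPL1 rising and GABARAP and GABARAPL2 showing opposite signs between lines. GABARAPL1 had 2707, 1228, 1226 and 2078 units in treated ACHN, CAKI2, A498 and CAKI1 cells, against 823, 343, 629.9 and 1137 units in DMSO cells. The lowest treated value exceeded the highest DMSO value. Its difference was 1.32 ± 0.50 (limma adjusted p = 0.00116), a 2.49-fold rise, and the second largest of the members. MAP1LC3B, whose product LC3B is the usual marker protein of autophagosomes, had 7139, 4800.0, 4607 and 9687 units in treated cells, against 3182, 3691, 3409 and 4789 units in DMSO cells. ACHN and CAKI1 moved by 1.15 and 1.03, while CAKI2 and A498 moved by 0.38 and 0.43. The MAP1LC3B mean was 0.74 ± 0.40 (limma adjusted p = 0.0058). GABARAP had -0.08 ± 0.33 and GABARAPL2 -0.11 ± 0.27, both negative in CAKI2 and A498. Probe sets of GABARAPL1 and MAP1LC3B can also match near-identical gene copies, so the share of each copy in these values is uncertain.

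The promoter of GABARAPL1 is shown for its rise and because all its treated values lay above the DMSO values. Capitals mark TGACGTCA, the palindromic cyclic AMP response element, here at positions -30 to -23 from the start. That motif was added to the search after the sequence had been seen, and is held by 1.85% of all 35116 windows of 300 bases and by 2.69% of those of genes tested.
GABARAPL1, chr12:10212627-10212876, plus strand: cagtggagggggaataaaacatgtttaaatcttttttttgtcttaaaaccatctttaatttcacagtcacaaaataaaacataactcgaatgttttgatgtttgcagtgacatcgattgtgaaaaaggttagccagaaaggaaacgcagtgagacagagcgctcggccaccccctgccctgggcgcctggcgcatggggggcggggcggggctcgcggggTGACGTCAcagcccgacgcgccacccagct

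**Figure D2:**
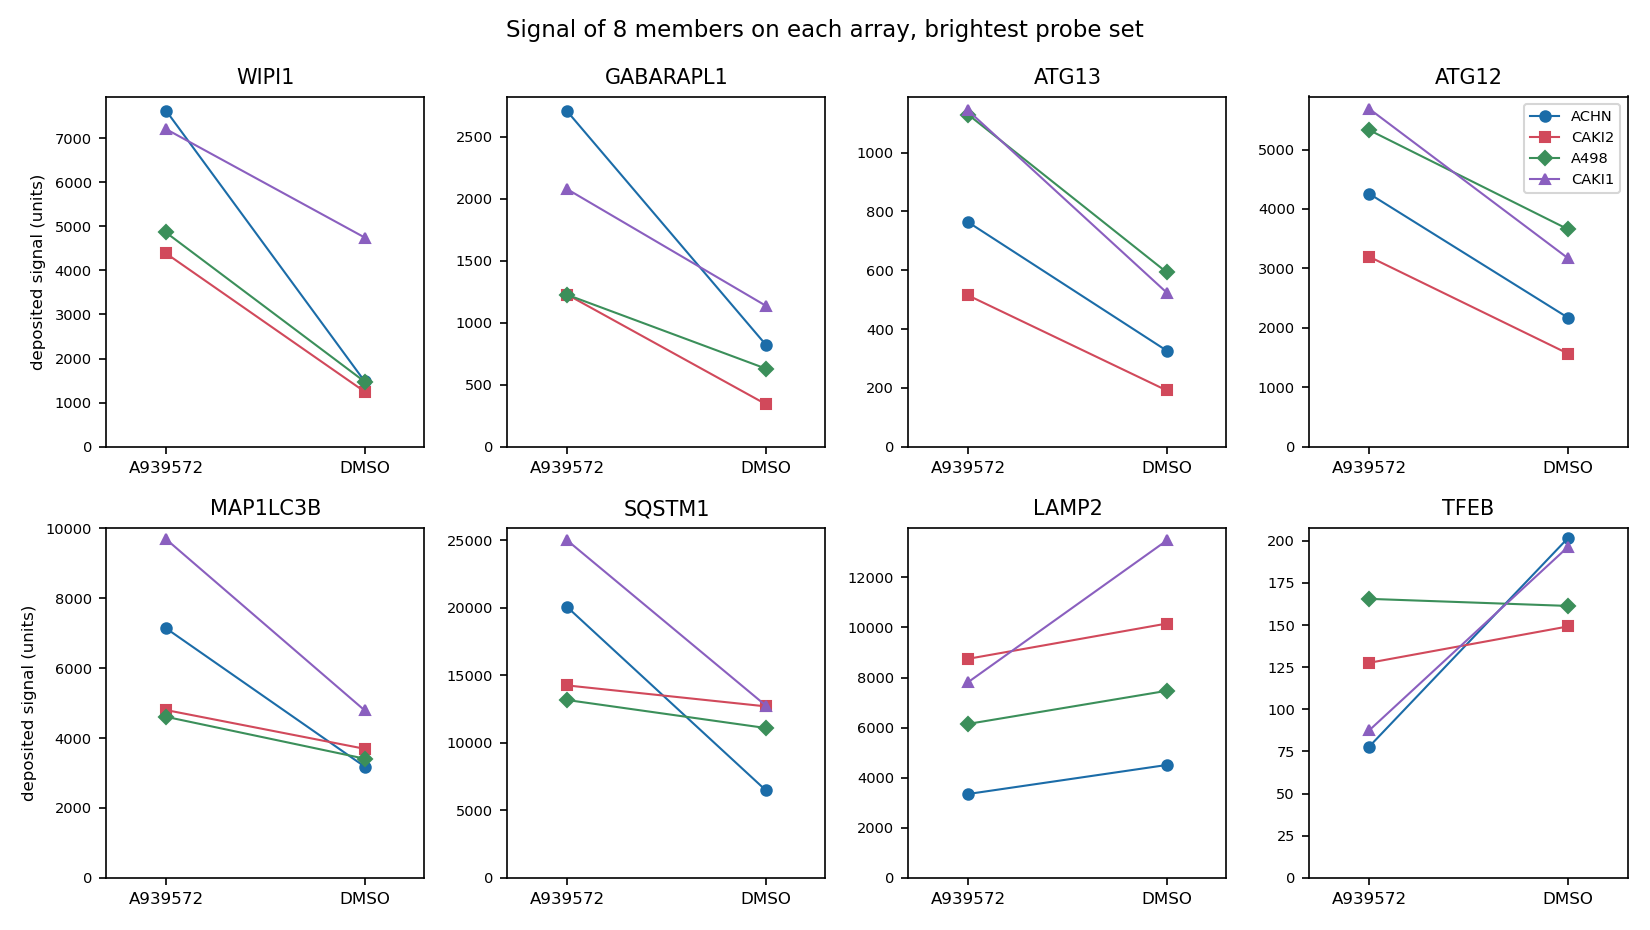
Signals in deposited linear units of WIPI1, GABARAPL1, ATG13, ATG12, MAP1LC3B, SQSTM1, LAMP2 and TFEB, A939572 to the left of DMSO in each panel, with a line joining the 2 arrays of a cell line and an axis that starts at 0. All 4 lines are higher on the A939572 side for the 6 genes from WIPI1 to SQSTM1 and lower there for LAMP2, and TFEB is lower there in 3 lines and about level in A498.

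Of the cargo receptors, which tie ubiquitinated cargo to ATG8 proteins, SQSTM1 and OPTN rose. OPTN had 5115, 5051, 6746 and 10399.7 units in treated ACHN, CAKI2, A498 and CAKI1 cells, against 2595, 3559, 4484 and 5479 units in DMSO cells. Each line rose, and DMSO CAKI1 cells alone exceeded the lowest treated values. The difference was 0.75 ± 0.23 (limma adjusted p = 0.00181). SQSTM1, which encodes p62, had 20061, 14251, 13171 and 24997 units in treated cells, against 6489.6, 12699.7, 11096 and 12763 units in DMSO cells. The groups did not overlap, by a narrow margin in A498, and DMSO ACHN cells were far lower than the other DMSO cells. The differences were 1.57 in ACHN and 0.89 in CAKI1 but 0.27 in CAKI2 and 0.37 in A498. The mean was 0.78 ± 0.60 (limma adjusted p = 0.0131). Without ACHN it was 0.51 (limma adjusted p = 0.03), and over the mean of all SQSTM1 probe sets it was 0.37 (limma adjusted p = 0.146), so the size of this rise depended on both. The call was also lost without the variance trend (limma adjusted p = 0.0539). NBR1, the other receptor, had 0.85 in ACHN and 0.12 in CAKI1, with a mean of 0.40 ± 0.31 (limma adjusted p = 0.0509).

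ATG4B, GABARAPL1 and SQSTM1 were the 3 members whose treated signals all lay above all DMSO signals, a pattern held by 4.51% of the genes tested. No member had all treated signals below all DMSO signals, where 5.17% of the genes tested did.

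TFEB itself was dim, and its differences opposed each other. It had 77.8, 128, 166 and 87.5 units in treated ACHN, CAKI2, A498 and CAKI1 cells, against 202, 149, 161 and 196 units in DMSO cells. ACHN and CAKI1 were lower with treatment (-1.11 and -1.02), and CAKI2 and A498 had -0.18 and 0.10. The mean of -0.55 ± 0.60 did not pass (limma adjusted p = 0.153).

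LAMP2 was the only lysosomal gene called, and it fell. This gene, whose product coats the lysosomal membrane and takes part in fusion, had 3349.6, 8746, 6147 and 7812 units in treated ACHN, CAKI2, A498 and CAKI1 cells, against 4509, 10153, 7469 and 13472 units in DMSO cells. Every line was lower, ACHN being low in both groups, and the groups overlapped. The mean was -0.40 ± 0.28 (limma adjusted p = 0.0351). The call was lost with median centring in place of quantile normalization (adjusted p = 0.0741) and without ACHN, A498 or CAKI1 (0.102, 0.0516 and 0.143), and the mean of all LAMP2 probe sets gave -0.25 (0.112). Of its other 3 probe sets, which may read other splice forms, 1 had -0.48 ± 0.35 (limma adjusted p = 0.0433), and the remaining ones -0.04 and -0.07.

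LAMP1, the companion membrane protein, had 21978, 15235, 20198 and 24074 units in treated ACHN, CAKI2, A498 and CAKI1 cells, against 23594, 18232, 21610.3 and 20268 units in DMSO cells. Only CAKI1 had the higher signal with treatment, and after normalization A498 was positive as well (0.11). The mean was 0.02 ± 0.15 (limma adjusted p = 0.882). The protease CTSB was lower in every line, at -0.30 ± 0.12 (limma adjusted p = 0.0584). Of its 4 other probe sets, 3 passed, with differences of -0.48, -0.60 and -0.56, and the mean of all its probe sets gave -0.47 (limma adjusted p = 0.0154). The protease CTSD had 0.02 ± 0.31. HEXA, the alpha subunit of beta-hexosaminidase, had 0.04 ± 0.05, the narrowest spread among the brightest probe sets of the members. Its 2 other probe sets past the filter had 0.39 ± 0.52 and 0.52 ± 0.30 without passing (limma adjusted p = 0.201 and 0.0858).

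MCOLN1, the calcium channel of the lysosomal membrane, had 406, 115, 459 and 235 units in treated ACHN, CAKI2, A498 and CAKI1 cells, against 103, 124, 315 and 243 units in DMSO cells. Its difference was 1.88 in ACHN and 0.55 in A498 but -0.06 and -0.04 in CAKI2 and CAKI1, so the mean of 0.58 ± 0.91 did not pass (limma adjusted p = 0.19).

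The promoters below are shown because they carry the E-box CACGTG, the core of the motif that TFEB and its relatives bind. A script searched both strands of windows from 250 bases before to 50 after each annotated start in RefSeq (GRCh38.p14), where 30 members had 38 windows. The E-box stood in 5 of the 38 windows, 1 each of ATG14, ATG3, LAMP1, CTSD and MCOLN1. Over all windows the share was 7.26%, and over those of genes tested 9.43%. The longer CLEAR element, which is this E-box with GT before it and AC after it, stood in the window of MCOLN1 alone. It stood in 0.353% of all windows or 0.671% of those of genes tested. Only exact matches were counted, so near matches were left out. RB1CC1, UVRAG, LAMP2, CTSB and HEXA had no window, so their promoters were not searched. The stretches run 5′ to 3′ on the gene's strand and end before the start, with the E-box and CLEAR motifs in capitals. A further E-box at 6 to 11 in ATG3 and another at -1 to 5 in LAMP1 lie outside them.
ATG14, chr14:55411831-55411871, minus strand: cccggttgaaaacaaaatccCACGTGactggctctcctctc
ATG3, chr3:112561963-112562000, minus strand: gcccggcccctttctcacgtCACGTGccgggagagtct
LAMP1, distal, chr13:113297027-113297122, plus strand: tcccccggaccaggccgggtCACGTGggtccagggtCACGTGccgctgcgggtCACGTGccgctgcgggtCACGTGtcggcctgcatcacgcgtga
LAMP1, proximal, chr13:113297191-113297236, plus strand: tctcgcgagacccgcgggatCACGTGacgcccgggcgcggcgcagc
CTSD, chr11:1763949-1763994, minus strand: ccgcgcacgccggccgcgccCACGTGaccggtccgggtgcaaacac
MCOLN1, chr19:7522563-7522623, plus strand: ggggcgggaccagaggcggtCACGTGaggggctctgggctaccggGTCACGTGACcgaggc
Of these 5 genes, ATG14 rose and the other 4 did not pass. Their mean differences were 0.54, 0.29, 0.02, 0.02 and 0.58 in the order shown. The amino acid response motif TGATGNAA stood in no member window (3.62% of all windows, 2.17% of those of genes tested). The unfolded protein response motif TGACGTG stood in windows of ATG10 and ATG3 (1.97% of all windows, 2.39% of those of genes tested). Neither gene passed. A match is a description of the letters and does not show that a factor binds there.

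The size of the shift differed between lines. In ACHN 15 of 35 members were at least 1.5-fold higher and 2 lower, against 18.6% and 19.1% of the genes tested. In CAKI2 9 were higher and none lower, against 15.4% and 17.2%. In A498 7 of 35 were higher, near the share of 16% of the genes tested, and 1 was lower, against 17.2%. In CAKI1 8 were higher and 2 lower, against 13.2% and 16.8%. The median over the 28 autophagy genes was 0.60 in ACHN, 0.38 in CAKI1, 0.34 in CAKI2 and 0.31 in A498, where the medians of all genes tested lay between -0.04 and -0.01. The autophagy genes with a positive difference numbered 25 in ACHN, 23 in CAKI1, 19 in CAKI2 and 18 in A498. For the 6 lysosomal genes the medians lay between -0.13, in CAKI2, and 0.03, in CAKI1. ACHN had the largest difference for 16 of 35 members, and for 27.1% of the genes tested. With 1 array of each kind per line, these differences between lines have no test.

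The DMSO arrays show how the untreated lines differed in these genes. CAKI1 had the highest DMSO signal for 16 members, A498 for 10, ACHN for 5 and CAKI2 for 4. CAKI2 had the lowest for 18 members and ACHN for 9. These counts are of deposited signals before normalization, and the matching shares of all genes tested were not computed. The counts therefore do not set the members apart from other genes. The ratio of the highest to the lowest line had a median of 2.31 over the members and 2.08 over all genes tested. It reached 3 for 10 members, and was under 1.5 for 6. ULK2 spanned 9.11-fold, with 369.8 units in ACHN and 40.6 units in A498. CTSD spanned 4.26-fold, since ACHN had 308 units and the other 3 lines 1065 to 1314 units. RB1CC1 and WIPI1 spanned 3.93-fold and 3.81-fold, with CAKI1 highest in both. For WIPI1 that spread between untreated lines was larger than the 3.07-fold rise with treatment.

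**Figure D3:**
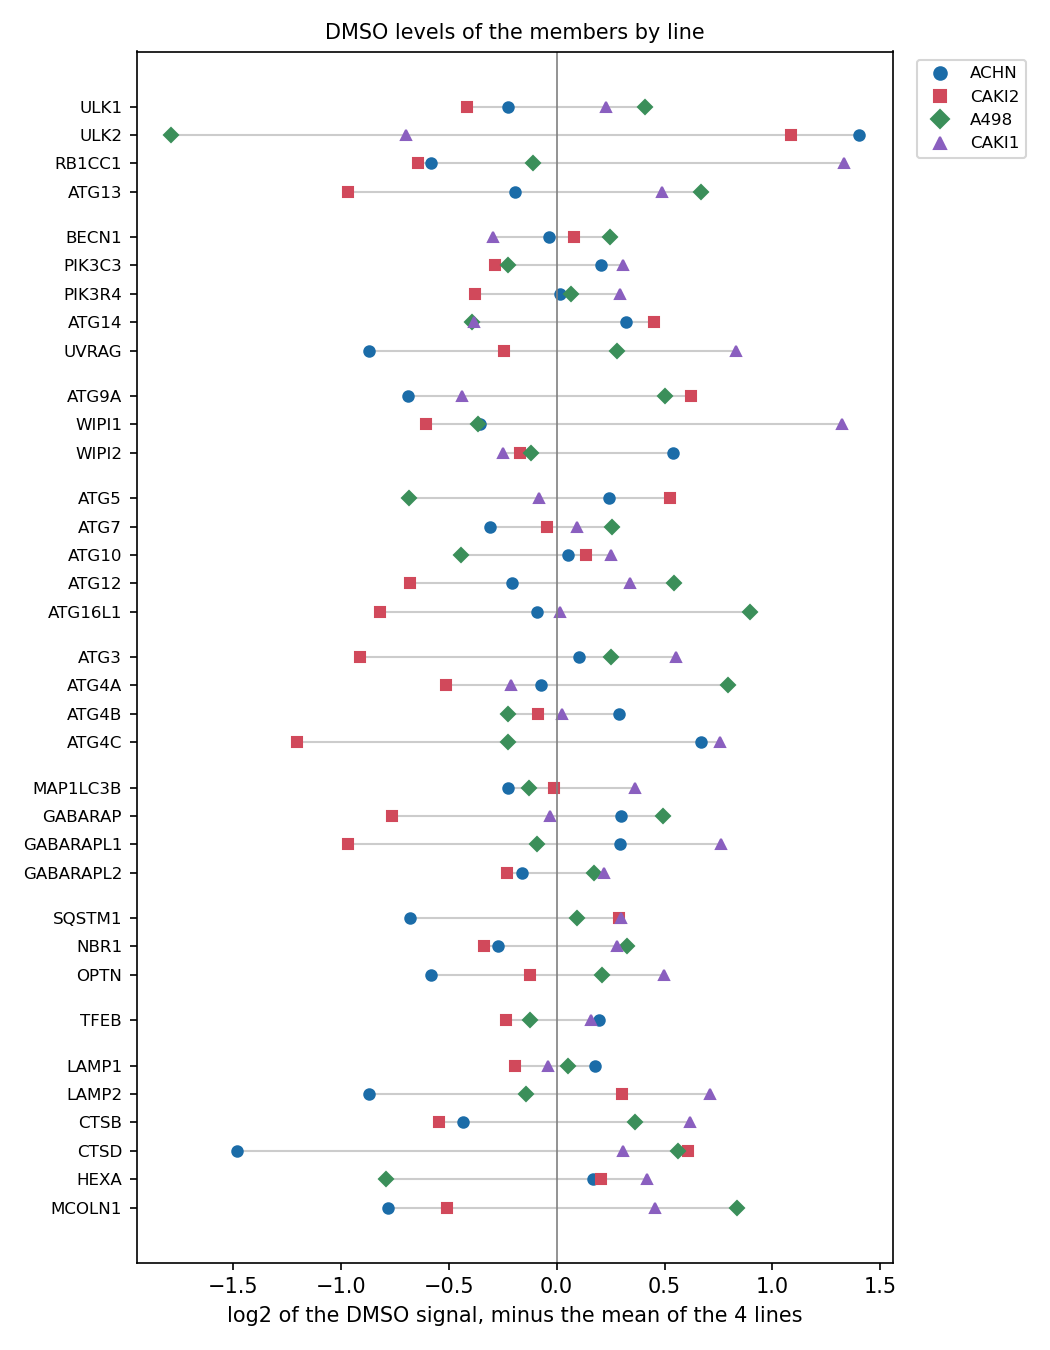
DMSO level of each member in each line, as log2 signal minus the member's mean over the 4 lines, with members down the page, lines as points and a bar over their range. ULK2 and CTSD are the most spread out, and the CAKI1 point is the furthest right for 16 members.

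Other probe sets of the risers were read as a check on the choice of the brightest. Of the 13 risers 10 had another probe set past the filter, 18 in all, of which 16 had a positive difference, 10 were called higher and none lower. Over all probe sets tested 13.5% were called higher and 13.9% lower. The 18 read the same RNA for genes already called higher, so they check the probe sets only and are not comparable with those shares. The second probe sets of GABARAPL1, MAP1LC3B, RB1CC1 and OPTN had 1.16 ± 0.85, 1.08 ± 0.51, 0.82 ± 0.42 and 0.51 ± 0.27, all past the threshold (limma adjusted p between 0.00203 and 0.0212). ATG13 had one further probe set at 1.21 ± 0.69 and one at 0.23 ± 0.47, of which the first passed (limma adjusted p = 0.00763 and 0.43). ATG12 likewise had 0.86 ± 0.34 and 0.34 ± 0.24 (limma adjusted p = 0.00456 and 0.168). The 2 negative probe sets were both of SQSTM1, at -0.17 and -0.21, beside others at 0.77 and 0.67. ATG14, UVRAG and ATG4A had 1 probe set each past the filter.

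**Figure D4:**
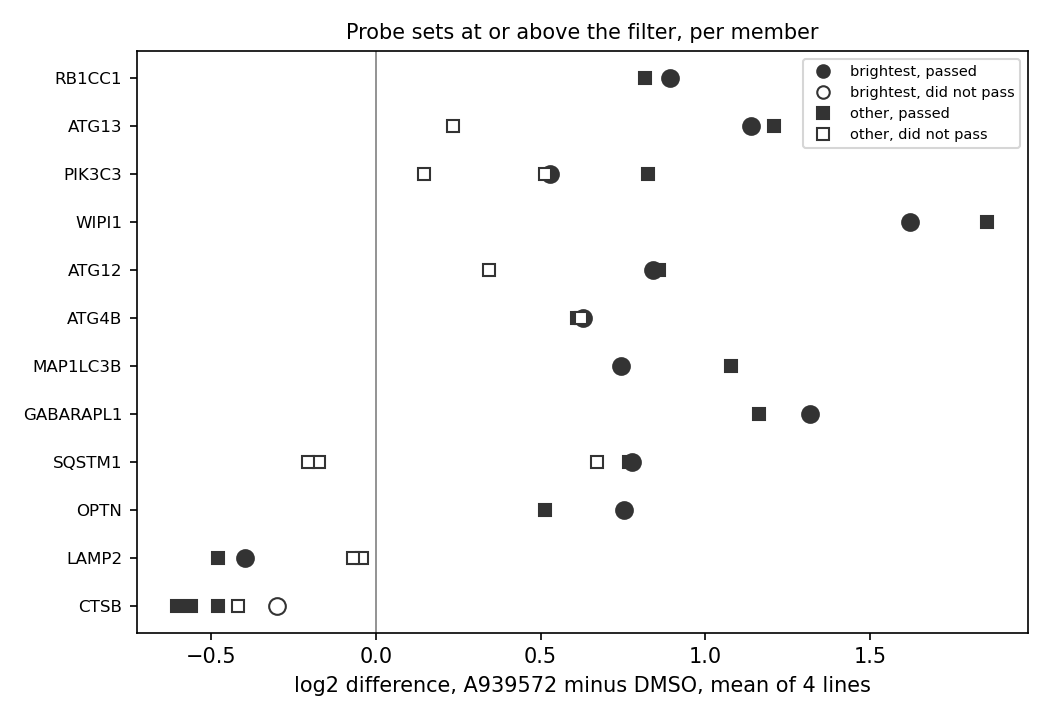
Mean difference over 4 lines of every probe set past the filter, A939572 minus DMSO on the log2 scale, for the 10 risers with several such probe sets and for LAMP2 and CTSB, with circles for the brightest probe set, squares for the others and filled symbols past the threshold. Both probe sets of WIPI1 lie further right than any other, and those of SQSTM1 spread from -0.21 to 0.78.

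Other genes of the same machinery, in lists that do not hold the 35 members, gave mixed counts, to be set beside the 14.7% of all genes tested that were called higher and the 15.9% called lower. Of 24 other autophagy core genes 7 rose and 2 fell, with a median of 0.28. WDR45, a relative of WIPI1, rose by 1.27 ± 0.33 (limma adjusted p = 0.00064). NRBF2, a subunit of the ATG14 complex, rose by 1.24 ± 0.33 (limma adjusted p = 0.000555). TMEM41B, a lipid scramblase of the endoplasmic reticulum, rose by 0.81 ± 0.34 (limma adjusted p = 0.00251). The fallers, named after their values were seen, were VMP1 (-0.52) and VAMP8 (-0.56), which act in membrane growth and in fusion. Of 16 further cargo and endoplasmic reticulum receptors tested, 5 rose and 1 fell, with a median of 0.01. TAX1BP1, a receptor related in role to SQSTM1, rose by 0.89 ± 0.22 (limma adjusted p = 0.00064), and the reticulum receptors RETREG1 and CCPG1 by 0.96 ± 0.68 and 0.52 ± 0.32 (limma adjusted p = 0.0147 and 0.0297). The RETREG1 call was lost over the mean of its probe sets (0.45, adjusted p = 0.198) and without CAKI2 (0.65, adjusted p = 0.0576), and the CCPG1 call without ACHN, CAKI2 or A498. The single faller was PHB2 (-0.32), also named after its value was seen.

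The lists of the lysosome are read against the same shares of all genes tested, 14.7% higher and 15.9% lower. Of 35 other hydrolases tested 2 rose and 8 fell, with a median of -0.13. The proteases CTSH, CTSC and CTSZ fell by 1.21 ± 0.29, 1.08 ± 0.14 and 0.76 ± 0.44 on the log2 scale (limma adjusted p = 0.000728, 0.000289 and 0.00965), and CTSZ had -0.25 over the mean of its probe sets (adjusted p = 0.512). The risers among the hydrolases, named after their values were seen, were TPP1 (0.68) and PSAP (0.41), the precursor of the saposins. Of 21 other lysosomal membrane or related proteins 3 rose and 7 fell, with a median of 0.07. MFSD8 rose by 0.95 ± 0.35 (limma adjusted p = 0.00256). NPC2, which carries cholesterol inside the lysosome, had -0.86 ± 0.26 and MCOLN2, a relative of MCOLN1, -0.87 ± 0.55 (limma adjusted p = 0.00104 and 0.0268), with the MCOLN2 call lost without ACHN or A498.

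Subunits of the proton pump that acidifies the lysosome counted 3 higher and 2 lower of 16, both near the shares of all genes tested (14.7% and 15.9%), with a median of 0.19. ATP6V0A2 had 1.03 ± 0.23, ATP6V0B 0.57 ± 0.35 and ATP6V0E2 -0.80 ± 0.12 (limma adjusted p = 0.00105, 0.0156 and 0.00307). Over the mean of its probe sets ATP6V0A2 had 0.34 (adjusted p = 0.189), and without CAKI1 the adjusted p of ATP6V0B was 0.0589. Of 8 genes of mannose 6-phosphate sorting none rose and 1 fell by limma, with none higher at an unadjusted p under 0.05. The faller was GNPTAB (-0.89 ± 0.40, limma adjusted p = 0.00286), part of the enzyme that adds this tag, with -0.03 in a probe set that matches a single transcript.

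TORC1 restrains initiation when nutrients are plentiful. Of 28 genes of TORC1 and nutrient sensing 6 rose and 2 fell, with a median of 0.22, where 14.7% of all genes tested were called higher and 15.9% lower. SESN2, a stress-induced inhibitor of TORC1, rose by 1.94 ± 0.24 (limma adjusted p = 0.000114), a 3.84-fold rise with a like size in every line. FNIP1, a partner of folliculin, and RRAGC, a Rag GTPase, rose by 0.78 ± 0.16 and 0.82 ± 0.25 (limma adjusted p = 0.00167 and 0.00158), the second with 0.45 over the mean of its probe sets (adjusted p = 0.0937). Of the relatives of TFEB, TFE3 rose by 0.95 ± 0.36 and MITF fell by 0.77 ± 0.41 on the log2 scale (limma adjusted p = 0.00184 and 0.00823), while TFEB itself did not pass.

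**Figure D5:**
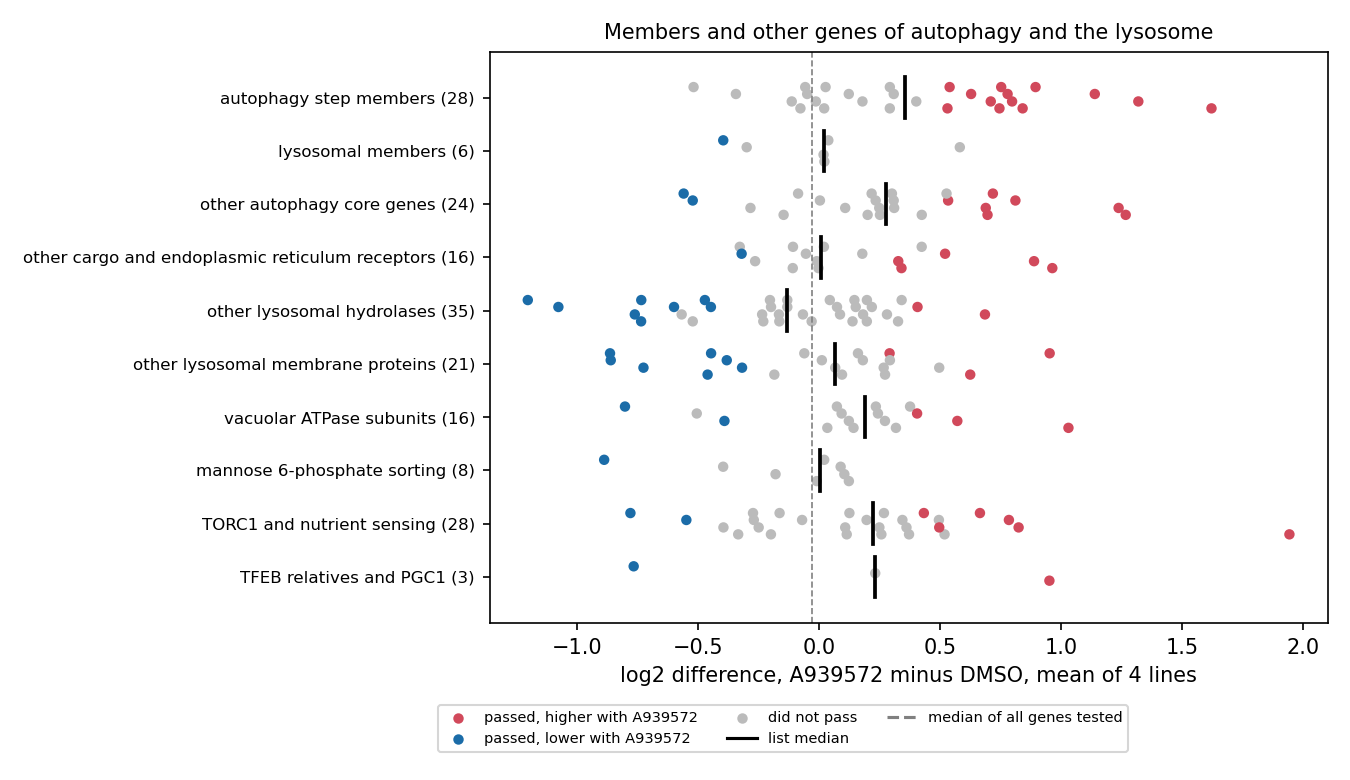
Mean difference over 4 lines of every gene tested in each list, A939572 minus DMSO on the log2 scale, with the number of genes in brackets, a bar at the list median and a dashed line at the median of all genes tested (-0.03). The autophagy members have the highest list median (0.35), the other hydrolases the lowest (-0.13), and SESN2 is the point furthest right at 1.94.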

How the data were processed

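Signals of 8 oligonucleotide arrays, 4 of A939572 and 4 of DMSO, were analysed. The deposited values are linear intensity signals, 1 per probe set, scaled by the authors so that each array's trimmed mean was 500.067 to 500.073. The summarization program is not given in the sources used here. Signals were transformed as log2(signal + 16), which understates changes of dim genes, and quantile normalized without 62 control probe sets. Of 54675 probe sets, 41091 had a single gene symbol, 1801 several and 11721 none in the table used. Names were updated for 41037 of them through a table of GRCh38.p14, used for names only. Genes were tested where their mean reached the median over all probe sets (6.41). The fit used limma 3.58.1 in R 4.3.3 with a mean-variance trend, 2-sided, and the cell line as a block, since the submitters' design sets each treated array against its own DMSO array. Deviations of the 2 arrays of a line correlated at 0.818 to 0.864, and those of different lines at -0.0301 at most. The degrees of freedom were 9.30. An exact test on 4 pairs cannot go below 0.125, and the number of arrays limits precision (median SE 0.17). A simulation of this comparison over 12093 genes drew independent noise from the fitted variances and changed far fewer genes than the data called. In it, 26% of genes changed 1.5-fold and 78% of those changed 2-fold were recovered, with 8 of 112 calls false. The adjusted threshold is stricter when few genes change, so these shares do not carry over to the data.

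The members, lists and tests were chosen with earlier results of these data known. All 35 members were accounted for, with values for every array where a member passed the threshold and for MAP1LC3B, SQSTM1, TFEB and LAMP1. ULK2, ATG4C and MCOLN1 were added after their values were seen. Of each pathway list up to 3 called genes with the largest absolute difference were named. CA9 and CD68 of the marker lists were not analysed here. The renal markers had 1 gene higher and 1 lower of 7, and COL1A1 was lower. Alternatives covered the scaling, offset, filter, probe set choice, block, variance trend and each line left out.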

Additional observations from a re-analysis of the deposited data

Results flagged for a closer look

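In 105 groups of 4 values of the members, 7 values lay farther from the other 3 than Dixon's 95% limit for the gap over the range allows. Chance flags about 1 in 20 groups. Levels are normalized log2 values. In treated cells, BECN1 was low in CAKI1 at 11.4 against 11.9 to 12.0 in the other lines, LAMP1 was low in CAKI2 at 13.97 against 14.39 to 14.47, ATG9A was high in CAKI2 at 8.87 against 8.39 to 8.41, and WIPI2 was high in ACHN at 12.2 against 11.2 in each of the others. In DMSO cells, WIPI1 was high in CAKI1 at 12.2 against 10.3 to 10.6, and CTSD was low in ACHN at 8.31 against 10.1 to 10.4. Of the differences, that of ATG7 stood apart in CAKI1, at 0.41 against -0.18 to -0.14 in the other lines. This held for the brightest probe set only. Its 2 other probe sets past the filter were also highest in CAKI1 (0.60 and 0.79), but were positive in ACHN (0.40 and 0.23) and A498 (0.24 and 0.40) too.

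ATG9A moved in opposite directions by at least 0.5 in ACHN (0.58) and A498 (-0.55), a limit chosen after the values were seen. With 1 array of each kind per line, the difference between these lines was not tested.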

How the results depend on the processing

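Members called higher numbered 11 to 13 when a line was left out, against 13, and the autophagy median then ran from 0.30 to 0.48. Members called lower ranged from 0 to 2 against 1, the lysosomal median from -0.072 to 0.062 against 0.02, pathway list genes higher from 17 to 21 against 27 and lower from 15 to 20 against 24. The lowest counts of pathway list genes came without ACHN for those higher and without A498 for those lower. LAMP2 ceased to be called, leaving 0 members lower, with median centring, without the filter and without the variance trend (2, 4 and 4 members lower at an unadjusted p under 0.05 in limma). The last setting also ended the SQSTM1 call. When probe sets able to match more than 1 transcript were left out, 8 of 23 members were higher and 2 lower, with fewer genes tested. With no replicate block (cell line left out of the model), 38 genes were higher and 29 lower, 0 members and 0 pathway list genes were called either way, and 8 members were higher and none lower at an unadjusted p under 0.05. Median centring moved the median of all genes tested to 0.03 and gave 2163 genes higher and 1544 lower (58.3% higher, against 48.0% of 1778 and 1927), and BECN1, ATG3 and NBR1 then rose as well (limma adjusted p = 0.036, 0.0297 and 0.0312). The cause was not tested. Dim members such as TFEB and ULK2, near the filter on some arrays, have the least certain differences.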
